A study of Mus musculus with 9 samples.

Results

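The 3 undifferentiated control libraries of a study of Yap1 in mouse embryonic stem (ES) cells were compared with each other, gene by gene. They are 3 of 9 libraries in the series, and no Yap1 change is labelled in any of them. Polyadenylated RNA was sequenced from J1 cells, an ES line with a 129S4/SvJae background, between passages 5 and 7. Control is the library set against the Yap1 knockdown (Yap1_KD), BirA is set against the Yap1 overexpression (Yap1_OE), and ESC is set against the libraries labelled as knockouts (Yap1_KO1 and Yap1_KO2). BirA is also the name of a bacterial biotin ligase, but the labels do not say what Control or BirA cells carry, nor the medium, the feeder layer or the day of harvest. Yap1_KD, Yap1_OE, Yap1_KO1 and Yap1_KO2 come from the same line, strain and passages and are used below as the other libraries of each arm. The comparison took in 18336 named genes after small RNA rows were left out, and the 11772 of them that reached 1 FPKM (fragments per kilobase of transcript and per mega mapped fragments) in at least 1 of the 3 libraries were compared. The other 6564 stayed below that level in all 3.

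ES cells are held in self-renewal by a network of transcription factors around Pou5f1, Sox2 and Nanog. Naive factors such as Gbx2, Tbx3 and Klf5 answer to LIF, BMP and Wnt signals, while FGF/ERK signalling moves the cells towards differentiation. Cells of 1 line can also differ in how much they use hypoxia-inducible, growth-arrest and stress-response genes, which depend on oxygen, density and nutrients in the dish.

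All 3 libraries carried the ES cell markers. The summed level of 9 ES markers was 5961 FPKM in Control, 6349 in BirA and 5204 in ESC, and no marker lay under 82.5 FPKM. The highest value of any of these markers was 2990 FPKM, so the order of the sums can rest on few abundant genes. Of 8 feeder fibroblast markers Col3a1, Lum, Dcn and Postn were at 0 in all 3, and the summed level was 26.2 FPKM in Control, 23.1 in BirA and 21.5 in ESC, with 22.3 FPKM as the highest value of any of these markers. The 6 primitive endoderm markers each stayed under 1 FPKM. The summed mesoderm, neuroectoderm and trophoblast markers lay between 1.04 and 4.20 FPKM in the 3 libraries. A wider list of trophoblast genes is described below, after the epithelial genes. Pou5f1 was at 1138 FPKM in Control, 1260 in BirA and 1240 in ESC, and Sox2 and Nanog were likewise within 2-fold in each pair. Yap1 itself stood at 37.4 FPKM in Control, 46.7 in BirA and 65.4 in ESC. Its log2 ratio, always taken here on log2(FPKM + 1), was -0.79 for Control over ESC, while its paralog Wwtr1 (TAZ) stayed between 7.88 and 9.41 FPKM. Yap1 RNA was still present in the libraries labelled as knockouts, at 57.3 FPKM in Yap1_KO1 and 27.6 in Yap1_KO2. The depth estimated from the steps between low values was 22.3 M (mega) fragments for Control, 14.6 for BirA and 14.8 for ESC.

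Each group has 1 library, so no difference between controls has a replicate check and none carries a p-value. The spread available for scale is the knockout-labelled pair, whose gap is given on the same genes. Control stood furthest from ESC: 310 genes were higher by 2-fold or more (2.63% of genes compared) and 200 were lower by as much (1.7%). Control over BirA had 99 higher (0.841%) and 31 lower (0.263%), and BirA over ESC had 107 higher (0.909%) and 49 lower (0.416%). By the same rule Yap1_KO2 over Yap1_KO1 had 35 higher (0.297%) and 30 lower (0.255%). The minimum of 1 FPKM was applied to the controls alone. A gene could thus enter through a control where it is high, but not through the knockout-labelled pair, which limits this scale. Over the 8122 genes with a mean of at least 5 FPKM, the standard deviation of the log2 ratio was 0.49 for Control over ESC, 0.33 for Control over BirA, 0.34 for BirA over ESC and 0.24 for the knockout-labelled pair.

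**Figure D1:**
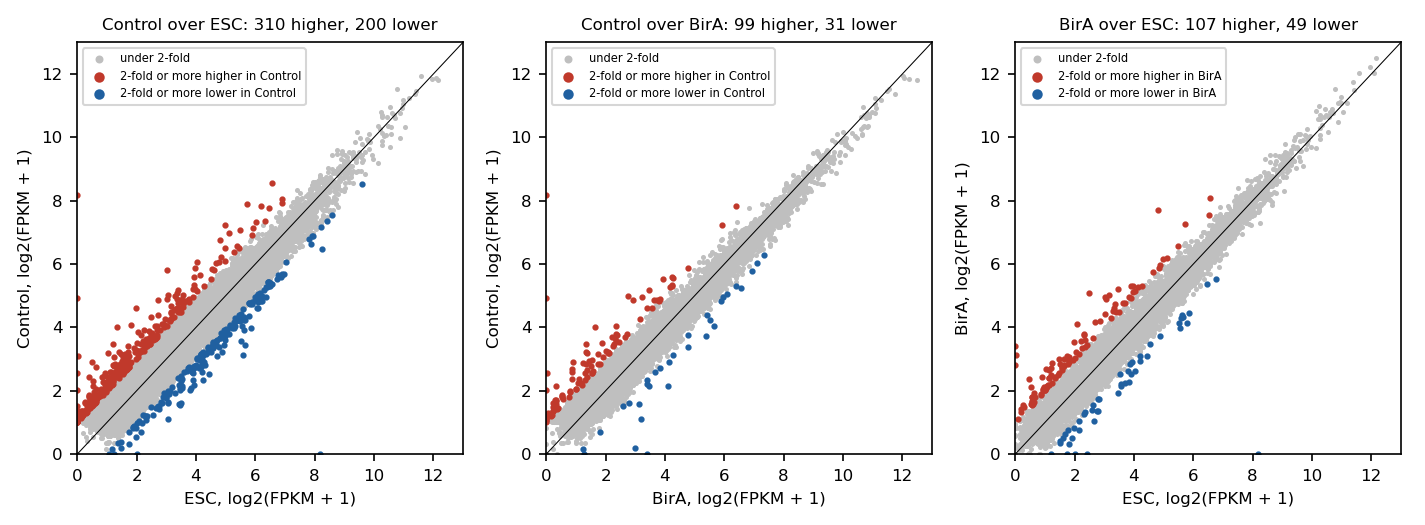
Each point is 1 of 11772 genes, with its log2(FPKM + 1) in 2 control libraries on the axes and the line of equal values in black. Genes at least 2-fold apart are coloured; Control over ESC has the most, 310 higher and 200 lower.

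A library was at least 2-fold from both others in the same direction for few genes. Control was high for 54 genes (0.459%) and low for 19 (0.161%), BirA was high for 5 (0.0425%) and low for 7 (0.0595%), and ESC was high for 31 (0.263%) and low for 66 (0.561%). Serbp1, an mRNA-binding protein gene, is listed at 0 in Control and BirA and at 289 FPKM in ESC, and such a 0 can be a failed estimate of the authors' program.

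Genes of glycolysis and the hypoxia response were higher in Control and in BirA than in ESC. Of 27 tested members, 7 were at least 2-fold higher and 0 lower in Control over ESC, and 8 were higher and 0 lower in BirA over ESC. The median log2 ratio was 0.55 for Control over ESC and 0.45 for BirA over ESC, beside -0.01 over all genes in each. Between Control and BirA 0 members were 2-fold apart and the median was 0.04. In the knockout-labelled pair 0 members passed 2-fold either, with a median of 0.10. In bulk RNA a smaller number of cells with such transcripts and less RNA in each cell cannot be told apart, here and below.

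These genes are bound in many tissues by hypoxia-inducible factors, whose core motif is ACGTG or GCGTG. The promoters of 3 members with high levels in Control and BirA are shown because they carry that core. They run from 250 bases before to 50 after the gene's start, 5′ to 3′ on the gene's strand, and come from RefSeq on GRCm38.p6, not on the mm9 build of the deposited values. Capitals mark the core on either strand (also written CACGT and CACGC), and overlapping matches share a run of capitals. Bnip3 lies at chr7:138909457-138909756 on the minus strand, P4ha1 at chr10:59323046-59323345 on the plus strand and Ddit4 at chr10:59951721-59952020 on the minus strand.
Bnip3: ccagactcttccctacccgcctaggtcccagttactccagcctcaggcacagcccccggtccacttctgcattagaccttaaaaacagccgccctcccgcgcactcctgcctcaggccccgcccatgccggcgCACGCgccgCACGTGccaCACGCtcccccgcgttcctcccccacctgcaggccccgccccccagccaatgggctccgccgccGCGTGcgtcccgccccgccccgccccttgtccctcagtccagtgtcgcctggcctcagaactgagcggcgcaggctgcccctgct
P4ha1: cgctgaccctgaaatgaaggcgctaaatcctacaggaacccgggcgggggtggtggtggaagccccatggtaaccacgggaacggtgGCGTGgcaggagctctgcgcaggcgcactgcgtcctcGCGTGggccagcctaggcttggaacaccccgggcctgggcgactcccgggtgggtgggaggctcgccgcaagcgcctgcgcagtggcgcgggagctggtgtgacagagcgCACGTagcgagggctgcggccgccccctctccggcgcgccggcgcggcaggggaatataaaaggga
Ddit4: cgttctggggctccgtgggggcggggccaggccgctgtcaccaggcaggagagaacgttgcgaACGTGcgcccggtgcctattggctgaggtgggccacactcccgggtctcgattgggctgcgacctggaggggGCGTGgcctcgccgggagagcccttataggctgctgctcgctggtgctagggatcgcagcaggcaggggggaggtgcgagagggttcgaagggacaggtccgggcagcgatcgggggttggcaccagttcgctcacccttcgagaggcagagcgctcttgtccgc
Bnip3 has 5 matches, P4ha1 has 3 and Ddit4 has 2. The core is short and common: 6118 of 9412 compared genes with a window (65%) and 11836 of all 27025 windows (43.8%) hold it. It was in 19 of 25 windows of glycolysis and hypoxia members (76%), in 7 of the 8 of those members with a window that were at least 2-fold higher in Control or BirA than in ESC (87.5%), and in 39 of 53 windows of the genes that were low in ESC (73.6%). Vegfa, described below and past 2-fold in Control over ESC, had 0 matches in its window. A match is a description of the letters and not a site.

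Bnip3, a mitophagy receptor, was at 55.1 FPKM in Control, 30.2 in BirA and 7.16 in ESC, with log2 ratios of 2.78 for Control over ESC and 1.94 for BirA over ESC. Ddit4, an inhibitor of mTORC1, was at 108 FPKM in Control, 207 in BirA and 27.1 in ESC, and its highest value was thus in BirA. Ndufa4l2, a mitochondrial protein induced in hypoxia, was at 31.3 FPKM in Control, 29.0 in BirA and 7.39 in ESC. These 3 genes were in each case lowest in ESC, by at least 2-fold against both others. P4ha1, a collagen prolyl hydroxylase subunit, was at 15.4 FPKM in Control, 17.2 in BirA and 5.47 in ESC, and the ankyrin repeat gene Ankrd37 at 33.0 FPKM in Control, 25.6 in BirA and 9.37 in ESC. Egln3, the oxygen-sensing prolyl hydroxylase that marks hypoxia-inducible factors for decay, had a log2 ratio of 0.98 for Control over ESC and 1.33 for BirA over ESC. The angiogenic factor Vegfa was at 22.5 FPKM in Control, 12.0 in BirA and 8.51 in ESC, so that Control was past 2-fold from ESC and BirA was not.

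Other single genes were also lowest in ESC. Of these, Ccng2, Txnip, Bhlhe40 and Ier3 were taken for the size of their ratios, so their low place in ESC follows in part from that choice. The glycolysis and hypoxia genes named above were likewise taken for large ratios or after their values were seen. Ccng2, a cyclin made in quiescent cells, was at 23.3 FPKM in Control, 10.7 in BirA and 2.94 in ESC, and it was at least 2-fold apart in all 3 pairs. Txnip, the thioredoxin-binding inhibitor of glucose uptake, was at 238 FPKM in Control, 154 in BirA and 52.1 in ESC. The circadian repressor Bhlhe40, also a known hypoxia target, was highest in BirA, with 18.1 FPKM in Control, 31.3 in BirA and 7.89 in ESC. The immediate early gene Ier3, a survival factor and a member of 2 lists, was at 19.3 FPKM in Control, 32.7 in BirA and 4.60 in ESC. Msmo1, a sterol oxidase of cholesterol synthesis, singled out after its values were seen, was at 89.7 FPKM in Control, 60.5 in BirA and 30.4 in ESC. Msmo1 is not among the 20 tested cholesterol and mevalonate genes, whose highest log2 ratio in Control over ESC was 1.09. Of these 20, however, 1 was at least 2-fold higher and 0 lower, with a median of 0.28.

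Naive pluripotency factors lay lower in Control than in ESC. Of 14 tested, 2 were at least 2-fold lower and 0 higher in Control over ESC (median log2 ratio -0.74), 2 lower and 0 higher in Control over BirA (-0.27), and 1 lower and 0 higher in BirA over ESC (-0.20). The median of the knockout-labelled pair was -0.01. Gbx2, a homeobox factor downstream of LIF, was at 7.77 FPKM in Control, 18.5 in BirA and 47.0 in ESC and was at least 2-fold apart in every pair. Nr0b1 (Dax1), a corepressor that partners Pou5f1, was at 38.8 FPKM in Control, 82.4 in BirA and 89.0 in ESC, so that Control stood apart from both others. Klf2, Tbx3 and Esrrb were each lower in Control than in ESC by less than 2-fold, with log2 ratios of -0.68, -0.87 and -0.86.

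The core and general pluripotency list showed a smaller gap. Of 14 tested, 3 were at least 2-fold lower and 0 higher in Control over ESC (median -0.44), and 0 passed 2-fold in either other pair. The 3 were Sall4, a zinc finger partner of Pou5f1, with a log2 ratio of -1.26, the chromatin factor Utf1 with -1.08 and the RNA-binding protein L1td1 with -1.03. Tdgf1, the Nodal coreceptor Cripto, went the other way, with 321 FPKM in Control, 259 in BirA and 168 in ESC. Formative and primed factors did not share 1 direction. Of 15 tested, 3 were at least 2-fold lower and 0 higher in Control over ESC (median -0.19), and 2 lower and 0 higher in Control over BirA (-0.42). BirA over ESC had 2 at least 2-fold higher and 1 lower, with 10 of 15 above 0 and a median of 0.19. The early repressor Foxd3, the lowest of them in BirA over ESC, was at 10.8 FPKM in Control, 16.5 in BirA and 45.3 in ESC. The de novo methyltransferase Dnmt3b was at 31.1 FPKM in Control, 46.7 in BirA and 65.8 in ESC. Pou3f1 (Oct6) was instead highest in BirA, with 3.60 FPKM in Control, 9.60 in BirA and 6.33 in ESC.

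The FGF/ERK, BMP and Wnt lists had negative medians in Control over ESC, with few members past 2-fold. In the FGF/ERK list of 16 genes, 1 was at least 2-fold higher and 1 lower in Control over ESC, with a median of -0.57, and 0 of 16 were above 0 in Control over BirA (median -0.42). The lower gene was Myc, the growth-promoting transcription factor, at 9.97 FPKM in Control, 19.09 in BirA and 49.8 in ESC, and the higher one was Ier3, which the FGF/ERK list shares with the immediate early list. The ERK feedback inhibitors Spry2 and Spred2 had log2 ratios of -0.96 and -0.93 for Control over ESC. Of 11 BMP pathway and Id genes 2 were at least 2-fold lower and 0 higher in Control over ESC, 4 lay above 0 and the median was -0.53. They were Id3, an inhibitor of basic helix-loop-helix factors that BMP induces in ES cells, at 14.7 FPKM in Control, 21.1 in BirA and 56.5 in ESC, and the ligand Bmp4, at 15.7 FPKM in Control, 17.5 in BirA and 34.6 in ESC. Of 10 Wnt targets, 2 were at least 2-fold lower and 0 higher in Control over ESC, with a median of -0.59: the cyclin Ccnd1, with a log2 ratio of -1.40, and the Wnt deacylase Notum, with -1.03.

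Nodal genes separated Control from BirA as well as from ESC. Of 12 tested, 3 were at least 2-fold lower and 0 higher in Control over ESC (median -0.68), 2 lower and 0 higher in Control over BirA (-0.33), and 0 were 2-fold apart in BirA over ESC (-0.08). Lefty1 and Lefty2 are secreted inhibitors of Nodal. Lefty1 was at 15.6 FPKM in Control, 49.5 in BirA and 39.1 in ESC. Lefty2 was at 17.8 FPKM in Control, 45.4 in BirA and 49.3 in ESC. Foxh1, the transcription factor that pairs with the Nodal-activated SMADs, was at 11.0 FPKM in Control, 22.0 in BirA and 24.8 in ESC. Gja1, the gap junction protein connexin 43, had the same shape outside the list, with 12.3 FPKM in Control, 40.4 in BirA and 30.7 in ESC.

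**Figure D2:**
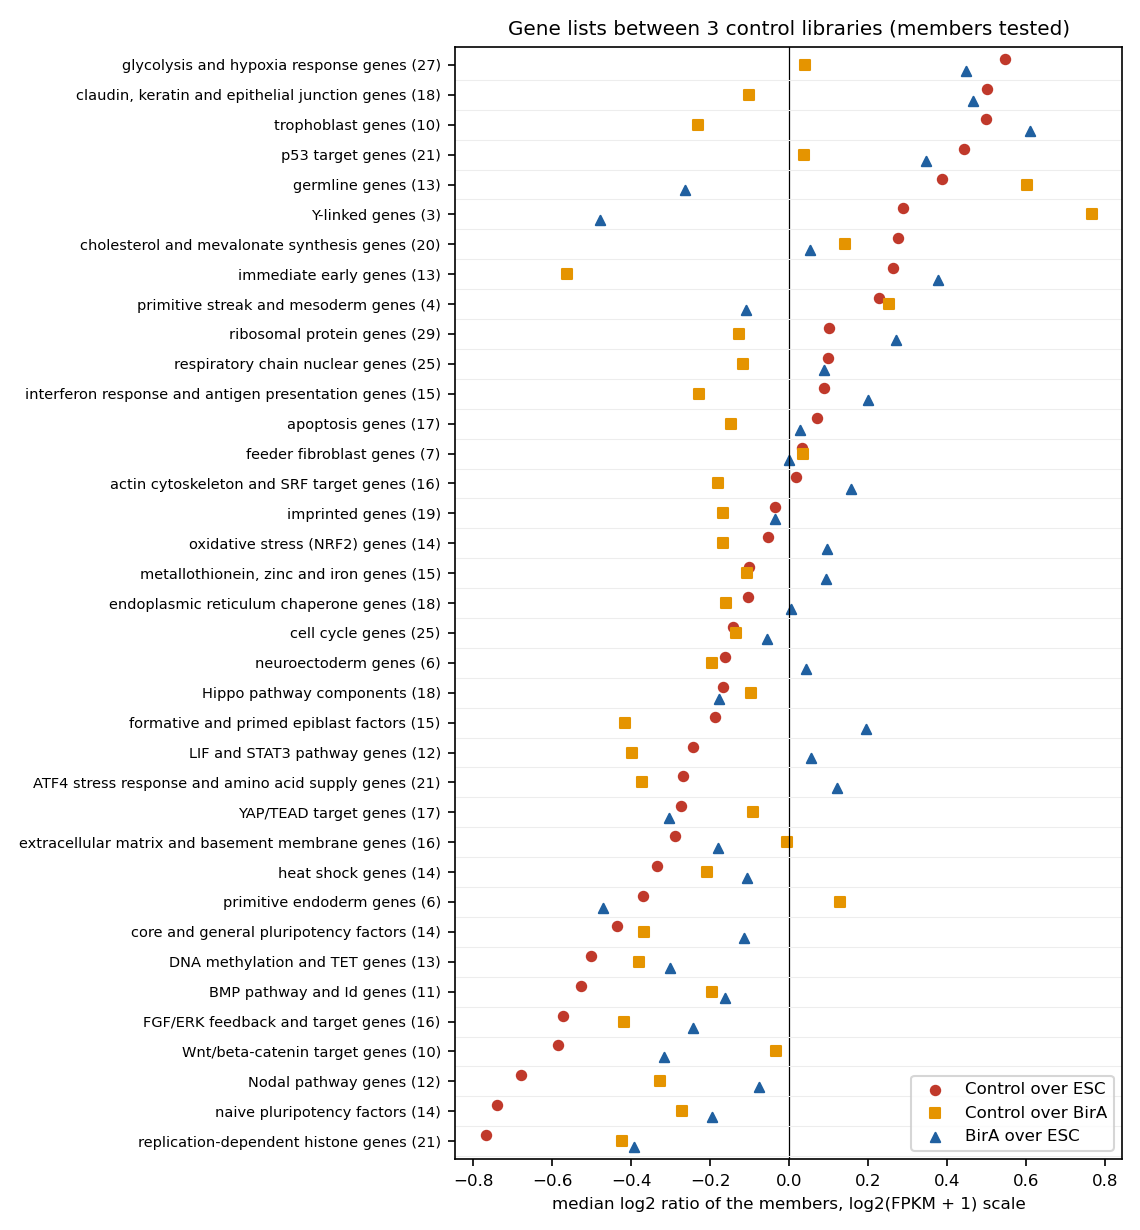
Median log2 ratio of each gene list with at least 3 tested members, lists collected after values were seen left out, for Control over ESC (circles), Control over BirA (squares) and BirA over ESC (triangles), with the number of tested members in brackets. Of the lists drawn, glycolysis and hypoxia genes stand highest in Control over ESC at 0.55 and replication-dependent histone genes lowest at -0.77.

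Replication-dependent histone genes had the lowest median of the lists drawn in the plot of list medians in Control over ESC. All 21 tested were lower, 6 of them at least 2-fold, and the median log2 ratio was -0.77, against -0.42 in Control over BirA and -0.39 in BirA over ESC, where 1 each was at least 2-fold lower. The knockout-labelled pair had a median of -0.26 for this list with 0 members past 2-fold, so a gap of the same sign was also present between those 2 libraries. Hist1h4d was at 30.3 FPKM in Control, 44.9 in BirA and 81.4 in ESC. Most of these mRNAs end without a poly(A) tail, and the family has near-identical copies whose fragments can be shared between genes, so single members are uncertain. The wider cell cycle list of 25 genes had 4 members at least 2-fold lower and 0 higher in Control over ESC, with a median of -0.14. Apart from Myc and Ccnd1 they were the D cyclins Ccnd2 and Ccnd3, which drive entry into S phase. Ccnd2 was at 4.88 FPKM in Control, 4.82 in BirA and 14.1 in ESC.

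Few genes of the p53 and ATF4 lists passed 2-fold. Of 21 p53 targets 3 were at least 2-fold higher and 0 lower in Control over ESC (median 0.44) and 1 was higher and 0 lower in BirA over ESC (0.35). The median of the knockout-labelled pair was -0.30, of about that size with the other sign. The stress protein Trp53inp1 was at 34.4 FPKM in Control, 28.4 in BirA and 15.4 in ESC. Among 21 genes of the ATF4 response, 1 was at least 2-fold higher and 0 lower in Control over ESC and 2 were higher and 0 lower in BirA over ESC. Both of those, Ddit3 (CHOP) and Nupr1, are stress-induced nuclear factors. Ddit3 was at 21.7 FPKM in Control, 35.9 in BirA and 10.1 in ESC. The list median was -0.27 in Control over ESC, against -0.26 in the knockout-labelled pair, and 0.12 in BirA over ESC.

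Most listed epithelial genes lay higher in Control and in BirA than in ESC, while those past 2-fold went both ways. Among 18 claudin, keratin and junction genes, 14 lay above 0 in Control over ESC, with 2 past 2-fold on either side (median 0.50). In BirA over ESC 14 lay above 0 as well, with 3 at least 2-fold higher and 1 lower (0.47). The tight junction gene Cldn7 was at 29.0 FPKM in Control, 20.6 in BirA and 7.12 in ESC. Keratin 17 (Krt17) was at 8.45 FPKM in Control, 12.4 in BirA and 28.4 in ESC. The trophoblast list, wider than the markers given above, had 10 tested members. In Control over ESC 7 lay above 0, with 1 at least 2-fold higher and 1 lower (median 0.50). In BirA over ESC 8 lay above 0 and 0 passed 2-fold (0.61). Control over BirA had 3 above 0 and 0 past 2-fold (-0.23). The median of the knockout-labelled pair was -0.04 for this list. Among 13 immediate early genes, the median was 0.26 in Control over ESC, which turned negative when genes under 5 FPKM were left out or no minimum was set, and 0.38 in BirA over ESC. The ERK phosphatase Dusp1 was at 20.3 FPKM in Control, 38.4 in BirA and 14.1 in ESC.

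Germline genes set Control apart from BirA. Of 13 tested, 4 were at least 2-fold higher and 0 lower in Control over BirA, all 13 lay above 0 and the median was 0.60. In Control over ESC 3 were at least 2-fold higher and 0 lower (median 0.39), and in BirA over ESC 1 was higher and 0 lower (-0.26). Stra8, a retinoic-acid-induced factor of meiotic entry, was at 15.3 FPKM in Control, 4.07 in BirA and 5.08 in ESC. Sycp3, a protein of the synaptonemal complex, was at 14.1 FPKM in Control, 9.22 in BirA and 3.76 in ESC. Mael, a piRNA pathway protein, was at 37.9 FPKM in Control, 17.0 in BirA and 20.6 in ESC. The 7 genes at least 2-fold lower in BirA than in both others included the meiotic HORMA domain gene Hormad2, at 6.86 FPKM in Control, 1.92 in BirA and 5.08 in ESC, the X-linked Xlr3a, at 8.06 FPKM in Control, 1.61 in BirA and 5.06 in ESC, and Pnma5, at 6.14 FPKM in Control, 1.54 in BirA and 5.79 in ESC. Xlr3a has near-identical copies on the X chromosome, so its value is uncertain.

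Long noncoding RNAs (lncRNAs) made up a large share of the genes high in Control alone. They were 243 of 11772 compared genes (2.06%) but 22 of the 54 genes at least 2-fold higher in Control than in both others (40.7%), and 30 of 99 in Control over BirA (30.3%). They were 5 of 107 in BirA over ESC (4.67%). The median log2 ratio of lncRNAs was 0.40 in Control over ESC, 0.39 in Control over BirA and -0.01 in BirA over ESC, while protein-coding genes had -0.02 in Control over ESC, -0.02 in Control over BirA and -0.01 in BirA over ESC. In the knockout-labelled pair the lncRNA median was -0.02. A gene could pass the minimum of 1 FPKM through Control alone. A low lncRNA that entered that way lies higher in Control by the rule itself. How many did so was not counted, which limits the shares and medians given for Control.

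Neat1, the RNA scaffold of nuclear paraspeckles, was at 15.3 FPKM in Control, 2.10 in BirA and 1.51 in ESC. Firre, an X-linked RNA that stays in the nucleus, was at 10.1 FPKM in Control, 1.52 in BirA and 1.31 in ESC. Meg3, the maternally expressed RNA of the imprinted Dlk1-Dio3 region, was at 28.3 FPKM in Control, 6.54 in BirA and 5.61 in ESC. In all 3 genes BirA and ESC lay close together and Control stood apart. Malat1, a very abundant RNA of nuclear speckles chosen after its values were seen, differed less, with 91.3 FPKM in Control, 58.8 in BirA and 49.8 in ESC. Hosts of small nucleolar RNAs, spliced transcripts whose introns hold the small RNAs, were also collected after values were seen. Among 13 of them, Control over ESC had 7 at least 2-fold higher and 0 lower, with a median of 1.22, and Control over BirA had 6 higher and 0 lower, with 0.99. Snhg1 was at 225 FPKM in Control, 83.9 in BirA and 71.9 in ESC, and Gas5, a host RNA that builds up in growth-arrested cells, was at 47.6 FPKM in Control, 18.0 in BirA and 14.4 in ESC.

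Genes that set BirA alone apart were few. H19, the imprinted noncoding RNA next to Igf2, was at 3.39 FPKM in Control, 16.3 in BirA and 3.24 in ESC, and Yap1_OE of the same arm had 198 FPKM. Socs3, the feedback inhibitor of LIF signalling, was at 36.9 FPKM in Control, 94.7 in BirA and 43.6 in ESC. The other 3 genes high in BirA were Ddx19b, Rnaset2b and Rpl26, which have close paralogs or processed copies, and Ddx19b is listed at 0 in Control and ESC, so these values are uncertain. Among genes high in ESC against both others were Inhbb, a subunit of activins, at 19.7 FPKM in Control, 16.5 in BirA and 54.4 in ESC, and Setd1b, a histone H3 lysine 4 methyltransferase, at 1.96 FPKM in Control, 2.78 in BirA and 10.2 in ESC.

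**Figure D3:**
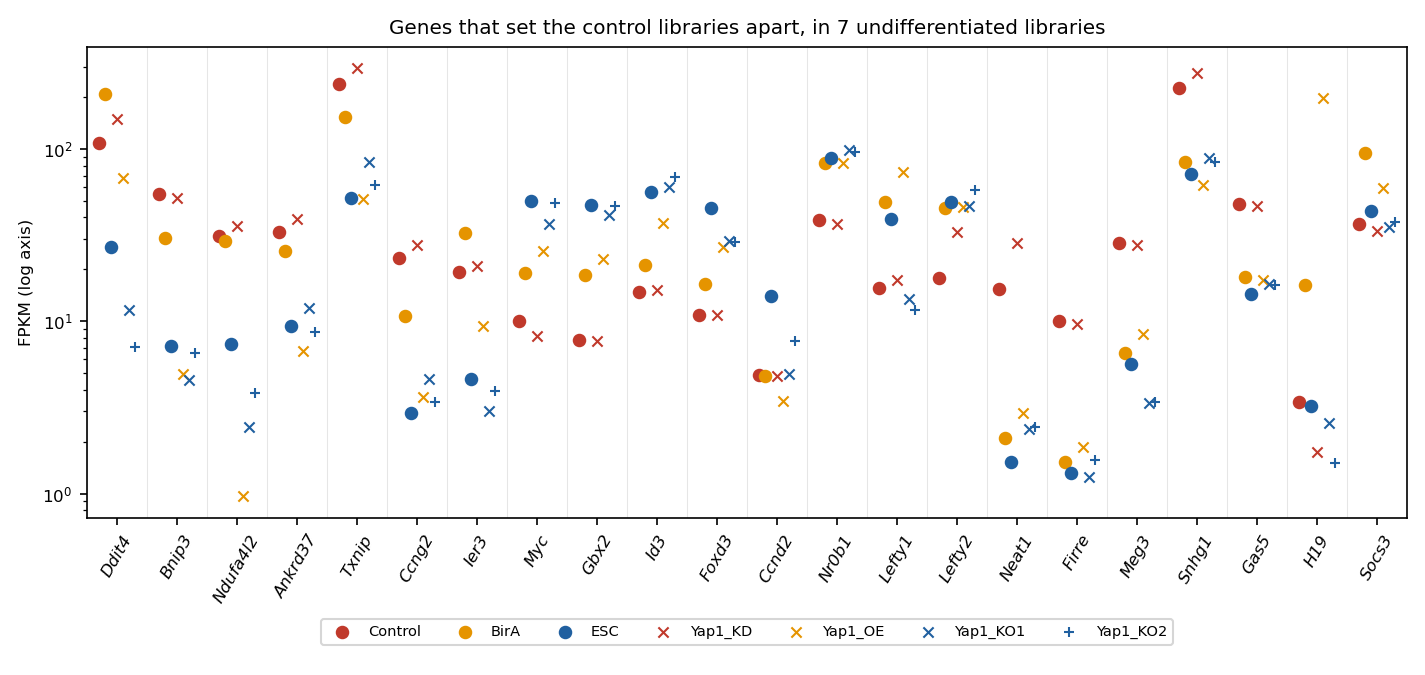
FPKM on a log axis of 22 genes described in the text, in Control, BirA and ESC (filled circles) and in Yap1_KD, Yap1_OE, Yap1_KO1 and Yap1_KO2 (crosses) in the colour of their arm. For Neat1, Firre, Meg3, Snhg1 and Gas5, Control and Yap1_KD stand above the 5 other libraries.

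Known YAP/TEAD targets differed by less than 2-fold between controls for most members. Of 17 tested, 1 was at least 2-fold higher and 3 lower in Control over ESC (median -0.27), and 0 passed 2-fold in either other pair. The knockout-labelled pair had 1 at least 2-fold lower and a median of -0.22. Ctgf, a secreted matricellular protein, was at 2.73 FPKM in Control, 5.74 in BirA and 7.62 in ESC. Amotl2, which binds and restrains YAP, was at 7.78 FPKM in Control, 12.3 in BirA and 18.1 in ESC, and Ajuba, a LIM protein that inhibits the LATS kinases, at 32.9 FPKM in Control, 53.6 in BirA and 70.0 in ESC. These 3 genes had the order of Yap1 itself, but they were the 3 picked as lower in Control over ESC. In Yap1_KD over Yap1_KO, Amotl2 and Ajuba had log2 ratios of 0.21 and 0.26, and the ratio of Ctgf is not given here. In that comparison 10 of the 17 targets lay above 0, with a median of 0.14. There 2 targets were at least 2-fold higher and 1 was lower, beside 5.49% and 2.76% of all genes. A relation to the Yap1 level was not tested. The stress gene Gadd45b had the opposite order, with 23.3 FPKM in Control, 18.0 in BirA and 9.28 in ESC. Among 18 Hippo pathway components, Amotl2 was the 1 that passed 2-fold, lower in Control over ESC.

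The other libraries of each arm share no library with the controls, so they show whether a difference between controls was also present between arms. Yap1 differs by design between them, and Yap1_KO is taken as the mean of the pair. Of the 310 genes higher in Control over ESC, 183 (59%) were at least 2-fold higher in Yap1_KD over Yap1_KO as well, which is 28.3% of the 646 genes higher there (5.49% of genes compared), and 306 lay above 0, as did 49.2% of all genes. Of the 200 lower genes 76 (38%) were also at least 2-fold lower, 23.4% of the 325 lower there (2.76%), and 181 lay below 0, as did 50.8% of all genes. Across the 8122 genes with a mean of at least 5 FPKM, the Pearson correlation of the log2 ratios was 0.67 and Spearman's rho was 0.64; genes are not independent replicates, and the points of each axis share its libraries. Bnip3 was at 51.9 FPKM in Yap1_KD, 4.53 in Yap1_KO1 and 6.57 in Yap1_KO2. Gbx2 was at 7.66 FPKM in Yap1_KD, 41.2 in Yap1_KO1 and 46.8 in Yap1_KO2. Neat1 was at 28.5 FPKM in Yap1_KD, 2.36 in Yap1_KO1 and 2.43 in Yap1_KO2. For all 3 genes Yap1_KD was on the side of Control and the knockout-labelled pair on the side of ESC.

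**Figure D4:**
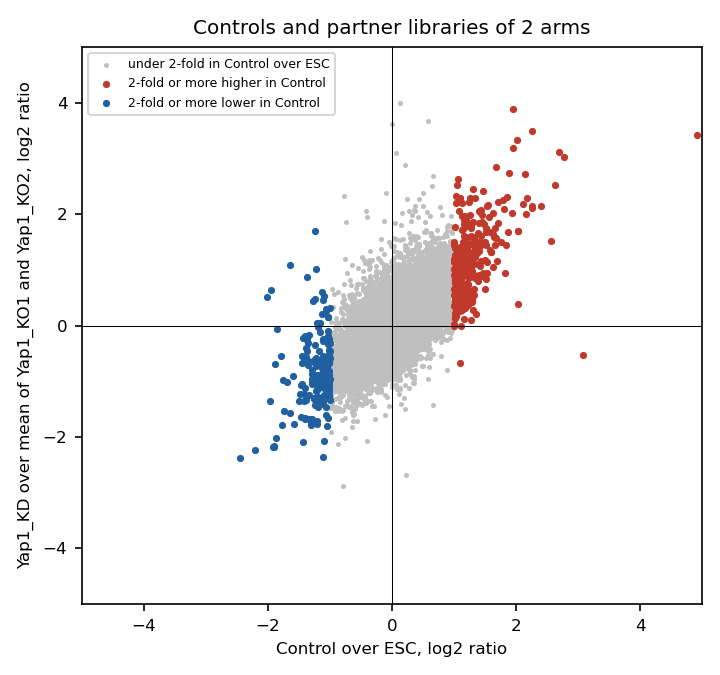
Each point is 1 gene, with its log2 ratio of Control over ESC on the x axis and of Yap1_KD over the mean of Yap1_KO1 and Yap1_KO2 on the y axis; 2 genes lie outside the axes. Of the 310 genes at least 2-fold higher in Control (red), 306 lie above 0 on the y axis.

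In the overexpression arm the shares were smaller; the difference between arms was not tested. Of the 107 genes higher in BirA over ESC, 27 (25.2%) were also at least 2-fold higher in Yap1_OE over Yap1_KO, 7.34% of the 368 higher there (3.13%), and of the 49 lower genes 9 (18.4%) were also lower, 2.62% of the 344 lower there (2.92%). On the same side of 0 lay 80 of the 107, against 47.6% of all genes, and 32 of the 49, against 52.4% of all genes. The Pearson correlation over the same genes was 0.23. The hypoxia group in particular was not shared: Bnip3 was at 4.97 FPKM in Yap1_OE and Ndufa4l2 at 0.963, below their levels in BirA (30.2 and 29.0) and in ESC (7.16 and 7.39). The list's median in Yap1_OE over Yap1_KO was -0.13, and it was 0.60 in Yap1_KD over Yap1_KO. Control over BirA was set beside Yap1_KD over Yap1_OE, where 66 of 99 higher genes (66.7%) and 16 of 31 lower genes (51.6%) were again past 2-fold. These are 8.67% of the 761 higher and 3.05% of the 524 lower there (6.46% and 4.45% of genes compared), and Pearson's correlation was 0.55.

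The GC content and length of transcripts moved with these ratios. In Control over ESC the median log2 ratio was 0.19 in the lowest of 5 equal bins of genes by GC content (median 41.6%) and -0.19 in the highest (58.2%). The lowest and the highest bin had 0.11 and -0.14 in Control over BirA, 0.06 and -0.06 in BirA over ESC, and 0.01 and 0.02 in the knockout-labelled pair. By transcript length the median of BirA over ESC was 0.08 in the bin of the shortest transcripts and -0.11 in that of the longest, and 81 of its 2-fold genes lay in the shortest bin against 10 in the longest. With the GC trend removed, Control over ESC had 368 genes at least 2-fold higher and 117 lower, of which 258 and 112 were among the original 310 and 200. The list medians of Control over ESC were then 0.57 for glycolysis and hypoxia genes, -0.60 for naive factors, -0.72 for histones and 0.40 for germline genes. The direction of the lists named here was thus unchanged within this correction. With the trend removed from both ratios, the Pearson correlation of Control over ESC with Yap1_KD over Yap1_KO was 0.76. It was 0.26 for BirA over ESC with Yap1_OE over Yap1_KO and 0.58 for Control over BirA with Yap1_KD over Yap1_OE. No corrected median is given for the lncRNAs or the hosts of small nucleolar RNAs. The part of GC content, length or depth in single genes was not tested.

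**Figure D5:**
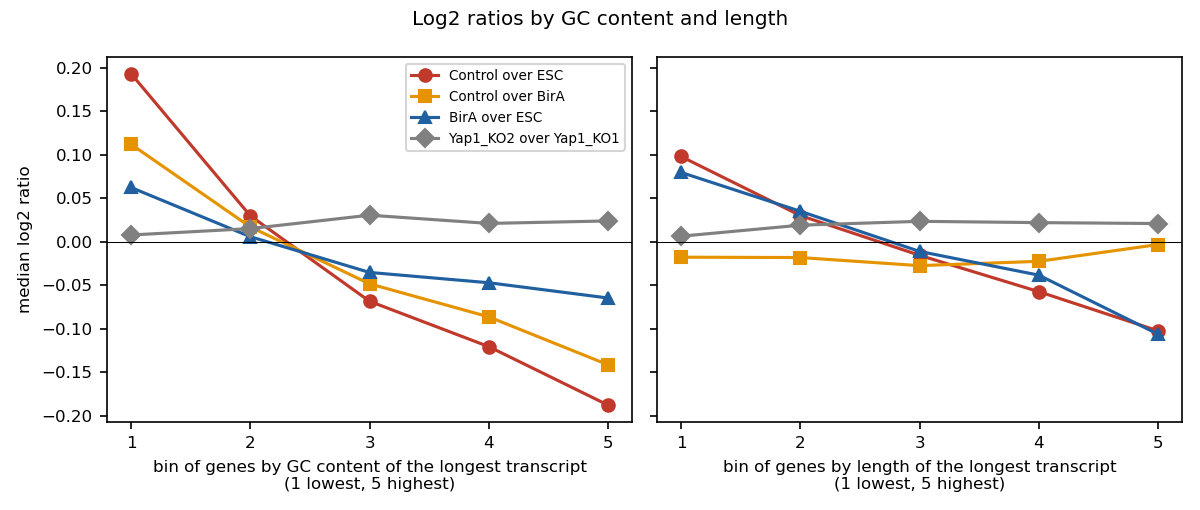
Median log2 ratio (y axis) in 5 equal bins of genes by GC content (left) and by length (right) of the longest annotated transcript, for the 3 control pairs and the knockout-labelled pair. Control over ESC runs between 0.19 in the lowest and -0.19 in the highest GC bin, and the knockout-labelled pair stays near 0.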

How the data were processed

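Polyadenylated RNA of 9 libraries was measured, and the authors deposited 1 table of FPKM values per gene. Reads were processed with TopHat2 and Cuffdiff on mm9, per the submitters' processing notes. Not given in the sources used here are versions, annotation and strandedness. Cuffdiff scales libraries against each other, and a 0 can be a failed estimate. The unit was taken from the tool and from the low values, since the file does not name it. Columns were matched to samples by title.

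The table has 23277 rows; 4746 blank rows, 27 with date-like symbols and 168 small RNA rows (18.5% to 21.9% of the summed FPKM of the controls) were left out. Log2 ratios use log2(FPKM + 1), which understates differences of low genes, over genes at 1 FPKM or more in any control, with a call at 2-fold. With 1 library a group there was no test. Depth was estimated from the value of 1 fragment in 206 long genes (quartiles 11.5 to 14.8 M for BirA), so 1 FPKM of a 2 kb transcript is about 44.6 fragments in Control, 29.1 in BirA and 29.5 in ESC; no counting interval was derived. The depth estimate is an effective depth, since the authors' scaling may be part of it. GC content and length come from the longest GENCODE transcript of each symbol, matched for 11698 genes. Python 3.11.15, pandas 2.3.3 and numpy 2.4.6 were used, and the steps were tested on simulated data.

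The libraries, gene lists and rules were chosen with earlier results of these data known. Genes named in the text were drawn from those with the 10 highest and the 10 lowest ratios of each pair at 5 FPKM or more. Up to 10 of each class of genes set apart in 1 library were added, with Yap1, Wwtr1, Pou5f1, Nanog and Sox2. Each list gave up to 6 members at 5 FPKM or more, those with the largest absolute log2 ratio in any control pair. Members drawn this way are extremes of their list by that choice, and not typical of it. Not all of these genes are described, and unnamed RIKEN clones were passed over. Transcripts under 300 nt and genes at 0 in 1 library but at 20 FPKM or more in another were kept out of the ranking. Genes of the lists outside these limits (Vegfa, Esrrb) and Malat1, Msmo1, Serbp1, Gas5 and the host gene list were chosen after their values were seen. Alternatives were other minimum levels, other pseudocounts, centring, GC correction, small RNA rows kept, genes at 0 left out and protein-coding genes alone.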

Additional observations from a re-analysis of the deposited data

How the results depend on the processing

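Counts of genes at least 2-fold apart moved by over 1.5 times most often with the pseudocount (14 of 14 counts at 5 and 11 at 0.5), then with small RNA rows kept (8), the minimum at 5 FPKM (5), the GC trend removed (3) and protein-coding genes alone (2). With a pseudocount of 0.5 the counts were 525 higher in Control over ESC, 185 higher and 48 lower in Control over BirA, and 179 higher and 86 lower in BirA over ESC. The knockout-labelled pair then had 62 higher and 67 lower. The classes held 102 genes high in Control, 9 high and 20 low in BirA and 119 low in ESC. With a pseudocount of 5 they were 64 higher and 76 lower in Control over ESC, 18 and 12 in Control over BirA, 22 and 13 in BirA over ESC, and 4 and 4 in the knockout-labelled pair. The classes were then 13 high and 4 low in Control, 3 high and 0 low in BirA, and 12 high and 11 low in ESC. A larger pseudocount shrinks every ratio by construction. At a minimum of 5 FPKM, Control over ESC had 185 higher, Control over BirA 56 higher, the knockout-labelled pair 21 higher and 19 lower, and 4 genes were low in BirA. With small RNA rows kept, BirA over ESC had 79 lower, Control over BirA 48 lower, the knockout-labelled pair 57 higher and 47 lower, and the classes held 89 high in Control, 17 high and 18 low in BirA and 50 high in ESC. With the GC trend removed, 117 genes were lower in Control over ESC, 20 lower in Control over BirA and 9 low in Control. With protein-coding genes alone, an alternative chosen after seeing the data, 63 were higher in Control over BirA and 29 high in Control. Centring, no minimum level and leaving out genes at 0 moved no count by that much. The median of the immediate early genes in Control over ESC became -0.24 at a minimum of 5 FPKM and -0.023 with no minimum, and that of 3 Y-linked genes, 0.29, became -0.020 with the GC trend removed; the cause was not tested. Of 111 list medians, 6 changed sign with the GC trend removed, 5 with centring, 5 with no minimum, 1 with a pseudocount of 5 and 0 with 0.5, as did 4 of 102 at a minimum of 5 FPKM. With each list median counted once per setting, 106 moved by more than the typical spread of the list's genes in the knockout-labelled pair. In the same count 3 were reversed and 548 stayed the same. Of 180 ratios of named genes past 2-fold, 76 fell under it with a pseudocount of 5 and 9 with centring, as did 25 of 176 with the GC trend removed, and 0 did with a pseudocount of 0.5. No paired analysis was possible because each control group has 1 library; for the same reason no replicate could be left out. Depth limits genes near 1 FPKM most.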

Other observations

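Some transcripts of splicing factors and regulators had the order Control, BirA, ESC as well, and were chosen after their values were seen. Rsrp1, an arginine and serine rich protein, was at 66.1 FPKM in Control, 34.4 in BirA and 15.4 in ESC, and at 68.9 FPKM in Yap1_KD. The splicing kinase Clk1 was at 94.4 FPKM in Control, 55.5 in BirA and 40.3 in ESC. The translation factor Eif4a2, whose introns hold small nucleolar RNAs, was at 127 FPKM in Control, 72.7 in BirA and 33.8 in ESC. The transferrin receptor Tfrc, which imports iron, was at 65.9 FPKM in Control, 37.7 in BirA and 26.4 in ESC, whereas Yap1_KO1 and Yap1_KO2 had 65.1 and 66.2 FPKM.

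Mitochondrial and ribosomal lists moved little. Of 25 nuclear-encoded respiratory chain genes 0 were 2-fold apart in any of the 3 pairs, with medians of 0.10 in Control over ESC, -0.12 in Control over BirA and 0.09 in BirA over ESC. Of the 29 listed ribosomal protein genes 0 were 2-fold apart in these pairs, with a median of 0.27 in BirA over ESC. The list is part of the family and leaves out Rpl26, which was high in BirA. Many of these genes have processed copies that share fragments.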
